A study of Rattus norvegicus with 9 samples.

Results

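The genes examined encode the enzymes that remove superoxide and peroxides and that make, recycle and use glutathione: the superoxide dismutases, catalase, glutathione peroxidases, peroxiredoxins, thioredoxins with their reductases, the glutathione-synthesis enzymes, the glutathione transferases and Nqo1. Members were every gene probe on the array whose gene name starts with Gst, Gpx, Prdx or Txn, together with Sod1, Sod2, Sod3, Cat, Nqo1, Gclc, Gclm, Gss, Gsr and Ggt1, 1 glutathione peroxidase being left aside. That gave 62 genes on 69 probes, of 26115 gene names on 30367 probes. Of these, 53 genes on 59 probes passed the filter on low signals and were compared between groups.

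The comparison was between kidneys of Fisher F344 rats in a model of donation after circulatory death, in which every kidney had 20 min of warm ischaemia by arterial clamping before it was removed. The NP group (n = 5) was not perfused. The MSC group (n = 4) had the same ischaemia and was then perfused without interruption for 4 h at 4°C with Belzer solution, a cold-storage fluid, to which 3000000 mesenchymal stromal cells had been added. These cells were grown from the bone marrow of Sprague Dawley rats carrying an EGFP transgene, so any donor RNA left in the tissue was rat RNA as well. The methods and the treatment label describe NP kidneys as not perfused, whereas the titles of the same samples name 4 h with Belzer solution. As the methods describe them, the groups differed in cold perfusion, in elapsed time and in the cells together, and the contribution of each cannot be told apart. Each array held RNA from 1 kidney, and the authors discarded a further MSC array for poor quality. Kidneys of both groups were kept in RNA later, a preservative, for the arrays.

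Reactive oxygen species rise when blood flow stops and again when it returns. Superoxide dismutases turn superoxide into hydrogen peroxide, which catalase, the glutathione peroxidases and the peroxiredoxins then remove. Glutathione peroxidases oxidise glutathione, which glutathione reductase restores with NADPH, while peroxiredoxins draw on thioredoxin, which thioredoxin reductase restores. Glutathione transferases attach glutathione to reactive products. The proximal tubule is rich in these enzymes and in brush-border gamma-glutamyl transferase, and many of the genes are targets of the transcription factor NRF2.

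Values below are log2 intensities after normalization, in the order of the replicate numbers, and a difference is MSC minus NP on that log2 scale. A level can be set against the same probe on another array but not against another probe. The 9 arrays correlated with each other at 0.961 to 0.997 across probes. NP replicates 1 and 2 stood apart from the rest, and NP replicate 2 was the highest of all arrays in 28.9% of the genes tested and the lowest in 19.7%. Markers of the labelled tissue were present, and the proximal tubule list (5 genes) had mean levels of 17.16 to 17.54 on NP arrays and 17.43 to 17.59 on MSC arrays. In that list 3 genes were higher and 2 lower in MSC kidneys. Among them Slc5a2 was higher on every MSC array, by 0.44 (limma p 0.00574, FDR 0.331). Of the cell lists, that of intercalated cells did not overlap between the groups, with means of 11.39 to 12.50 on NP and 12.66 to 12.90 on MSC arrays, and all 3 of its genes were higher in MSC kidneys at an unadjusted limma p under 0.05 (median log2 difference 0.76). Slc12a3, the marker of the distal convoluted tubule, differed by 0.59 (limma p 0.0174, FDR 0.351), and Slc12a1 of the thick ascending limb by 0.50 (limma p 0.0277, FDR 0.391). The lists of red cells and of perirenal fat overlapped but shifted too, red cells with means of 11.60 to 12.67 on NP and 9.08 to 12.12 on MSC arrays, and fat with 10.13 to 11.08 on NP arrays against 10.18, 10.98, 13.06 and 12.36 on MSC replicates 1 to 4. The part of these cells in the levels of the antioxidant genes was not tested. In whole tissue, fewer cells of a type and less RNA per cell cannot be told apart.

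No antioxidant gene passed the test between MSC and NP kidneys after adjustment. In limma's moderated test the lowest false discovery rate (FDR) of a member was 0.331, and 0 of 53 members passed 0.05, as did 0 of all 13833 genes tested (background 0%), the lowest FDR of any gene being 0.0989. At an unadjusted p under 0.05 there were 4 members, or 7.55%, against 11.7% of all genes. Gpx8 was the 1 member higher in MSC kidneys (background in that direction 6.62%), and Gpx2, Txndc11 and Gstm7 were the 3 lower ones (background 5.11%). The share of members past this threshold was thus below that of all genes, but with no filter on low signals it was above it, at 12.9% of 62 members against 8.8% of all genes.

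The differences were also small. Of the 53 genes, 27 were higher and 26 lower in MSC kidneys, with a median difference of 0.0034 against -0.0056 for all genes. The median size of the difference without regard to sign was 0.10 for the members and 0.12 for all genes. A change of over 1.5-fold was measured for 1 member, Gpx8, or 1.89%, against 2.19% of all genes. For 46 members the whole 95% interval of the difference lay within 1.5-fold in either direction, and for 51 within 2-fold. Each interval was taken alone and is for the signal of 1 probe per gene, without background subtraction. The intervals thus describe probe signals in the groups of 5 and 4 kidneys and do not directly bound the change in the transcripts. The MSC and NP arrays did not overlap for 2 members, Gpx2 and Txn1 (3.77%), both lower on every MSC array, whereas 5.27% of all genes did not overlap and 2.13% were lower on every MSC array. No member was higher on every MSC array, against 3.15% of all genes.

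**Figure D1:**
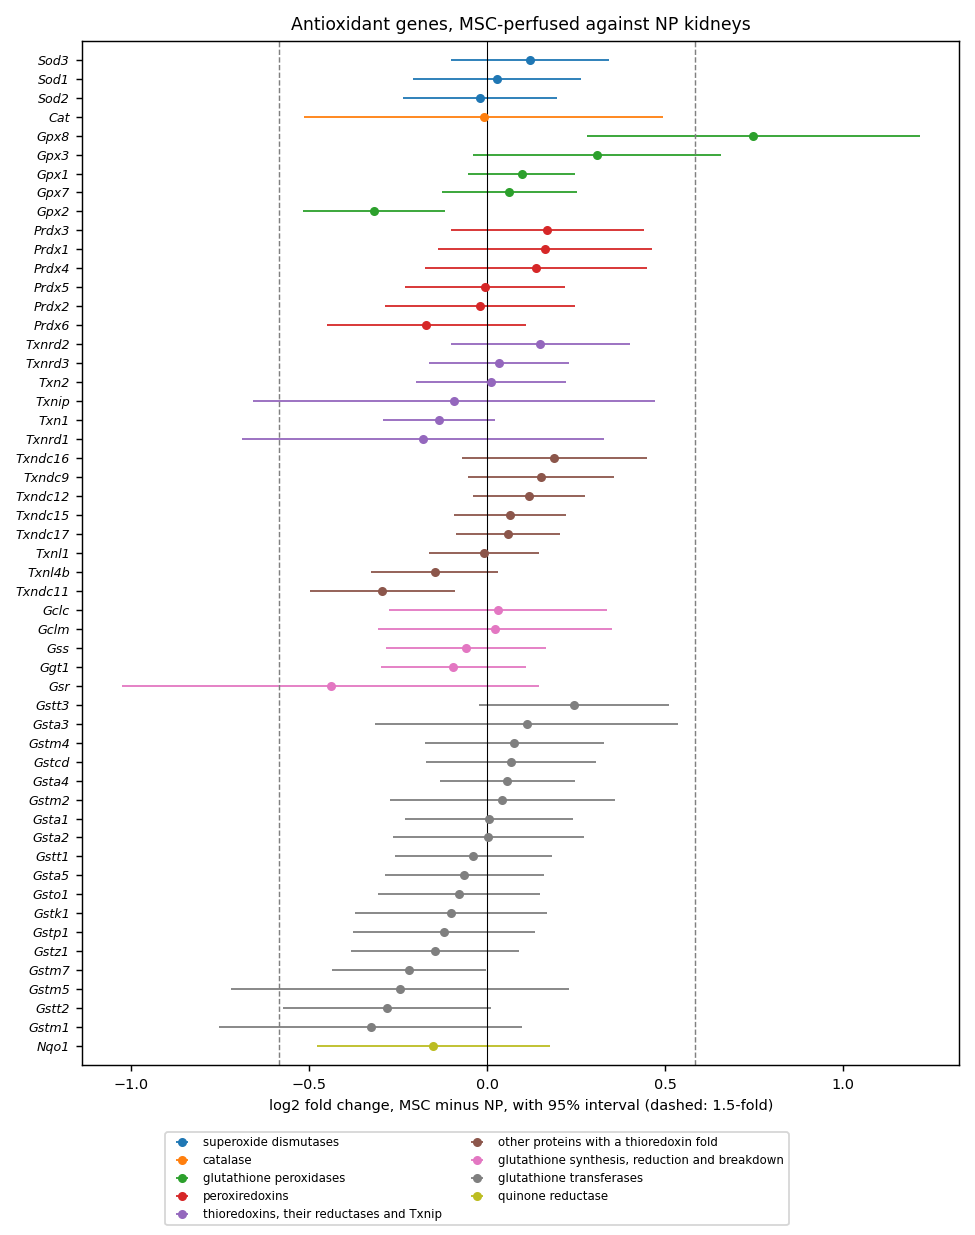
Difference between MSC and NP kidneys for each of the 53 antioxidant genes tested, as log2 fold change (horizontal axis) with its 95% interval from limma, coloured by role. Intervals of 46 genes stay between the dashed lines at 1.5-fold, and Gpx8 is the gene whose estimate lies beyond them.

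**Figure D2:**
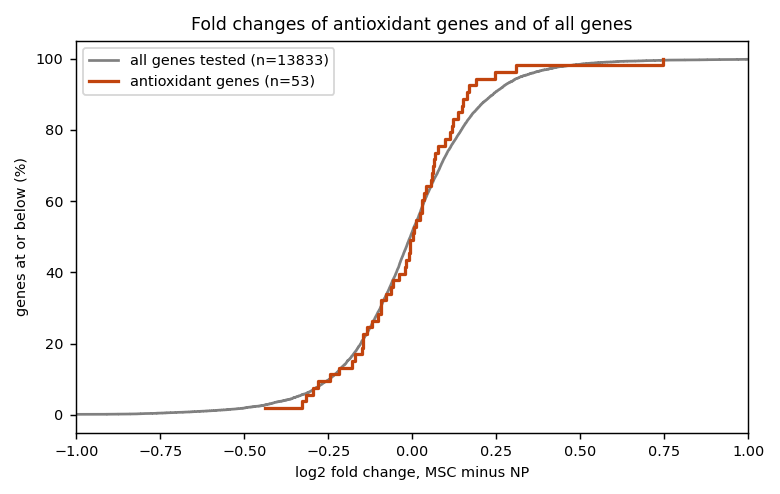
Percentage of genes (vertical axis) at or below each log2 fold change of MSC minus NP (horizontal axis, cropped at 1 in either direction) for the 53 antioxidant genes and for all 13833 genes tested. The curves run together through the centre, with medians of 0.0034 and -0.0056.

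The superoxide dismutases, the first enzymes of the chain, differed by at most 0.12 between the groups. Sod1, the cytosolic copper-zinc enzyme, measured 17.84, 18.25, 18.21, 18.18 and 18.05 on the NP arrays and 18.04, 18.15, 18.03 and 18.32 on the MSC arrays. The MSC values lay inside the NP range but for MSC replicate 4, which was the highest of the 9. Its difference was 0.029 with a 95% interval of -0.21 to 0.26. Sod2, the manganese enzyme of mitochondria, measured 14.25, 14.37, 14.29, 14.23 and 14.25 in NP and 14.03, 14.34, 14.18 and 14.47 in MSC kidneys, where the spread of the MSC arrays was wider than that of the NP arrays. The difference of Sod2 was -0.02 (95% interval -0.24 to 0.20), and that of Sod3, the secreted enzyme, was 0.12 (95% interval -0.10 to 0.34), with NP arrays from 16.87 to 17.29 and MSC arrays from 17.15 to 17.30. None of the 3 passed an unadjusted p of 0.05.

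Catalase, the peroxisomal enzyme that splits hydrogen peroxide, varied among NP kidneys more than between groups. Its levels were 13.05, 14.07, 13.90, 14.34 and 13.91 in NP and 14.03, 13.91, 13.87 and 13.56 in MSC kidneys. NP replicate 1 was the lowest and NP replicate 4 the highest of all 9 arrays. The difference was -0.0097 (SE 0.23), and its interval of -0.51 to 0.50 is among the widest of the members. On slide 1 alone MSC minus NP was 0.30 and on slide 2 alone -0.41. The probe of Cat spans 1945 bases of chromosome 3 on the rat rn4 assembly (chr3:88683063-88685007), more than its 60 bases, as for a probe across an exon junction.

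Among the glutathione peroxidases, which reduce peroxides with glutathione, 5 of 7 genes were tested and the largest difference of the whole set was seen. Gpx8, a peroxidase of the endoplasmic reticulum, measured 9.71, 10.91, 10.44, 10.37 and 10.35 in NP and 11.27, 10.76, 11.18 and 11.20 in MSC kidneys. Every MSC array but replicate 2 was above all NP arrays, and MSC replicate 2 was below NP replicate 2 alone. The level was 1.68-fold higher in MSC kidneys (log2 difference 0.75, SE 0.21, limma p 0.00516, FDR 0.331). Within slide 1 the difference was 0.66 and within slide 2 0.83. The stromal cell list, 5 of whose 7 genes were tested, averaged 11.52, 12.52, 11.79, 12.03 and 12.09 on NP and 12.44, 12.10, 12.49 and 12.72 on MSC arrays. In that list all 5 tested genes were higher in MSC kidneys and 1, the collagen gene Col1a1, had an unadjusted p under 0.05, with a log2 difference of 1.06 (FDR 0.331). The part of stromal cells in the Gpx8 level was not tested.

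Gpx2, a selenium-dependent peroxidase best known from gut epithelium, was lower in MSC kidneys on the probe used. This probe measured 15.59, 15.88, 15.69, 15.65 and 15.48 in NP and 15.26, 15.36, 15.35 and 15.40 in MSC kidneys. All MSC arrays were below all NP arrays, the closest being MSC replicate 4 and NP replicate 5. NP kidneys were 1.25-fold above MSC kidneys (log2 difference -0.32, SE 0.09, limma p 0.00541, FDR 0.331). Another probe of Gpx2, which lies upstream in the transcript (bases 634 to 693, chr6:99372734-99372793 on rn4, minus strand), is shown because its groups overlapped where those of the other probe did not.
Gpx2 upstream probe: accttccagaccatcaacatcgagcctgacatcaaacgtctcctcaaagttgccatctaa
That probe measured 14.51, 13.94, 14.39, 14.56 and 14.43 in NP and 14.19, 14.18, 14.30 and 14.16 in MSC kidneys, with NP replicate 2 lowest, the array that was highest on the other probe. Its difference was -0.16, with a limma p of 0.234 when all probes were fitted. With the mean of both probes the difference of Gpx2 was -0.24 (limma p 0.00669, FDR 0.334). Slide 1 gave -0.41 and slide 2 -0.19 on the chosen probe.

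Gpx3, the peroxidase that kidney tubules secrete into plasma, is shown with its probe because the kidney is its main source. The probe covers bases 308 to 367 of the transcript and 1468 bases of chromosome 10 (chr10:40316128-40317595 on rn4, plus strand), again more than its own length.
Gpx3 probe: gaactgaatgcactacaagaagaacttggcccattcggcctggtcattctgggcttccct
Its levels were 17.09, 17.28, 17.40, 17.85 and 17.72 in NP and 17.77, 17.82, 17.93 and 17.60 in MSC kidneys. The 3 lowest arrays were the NP arrays of slide 1, and the NP arrays of slide 2 lay among the MSC arrays. The difference was 0.31 (limma p 0.0757), made up of 0.54 within slide 1 and -0.023 within slide 2. Gpx1, the cytosolic enzyme, had a difference of 0.10 (NP 17.71 to 17.81, MSC 17.79 to 17.93) and Gpx7, another peroxidase of the endoplasmic reticulum, of 0.062 (NP 10.06 to 10.31, MSC 10.15 to 10.34). Gpx5 and Gpx6, known mainly from epididymis and olfactory tissue, did not pass the filter.

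**Figure D3:**
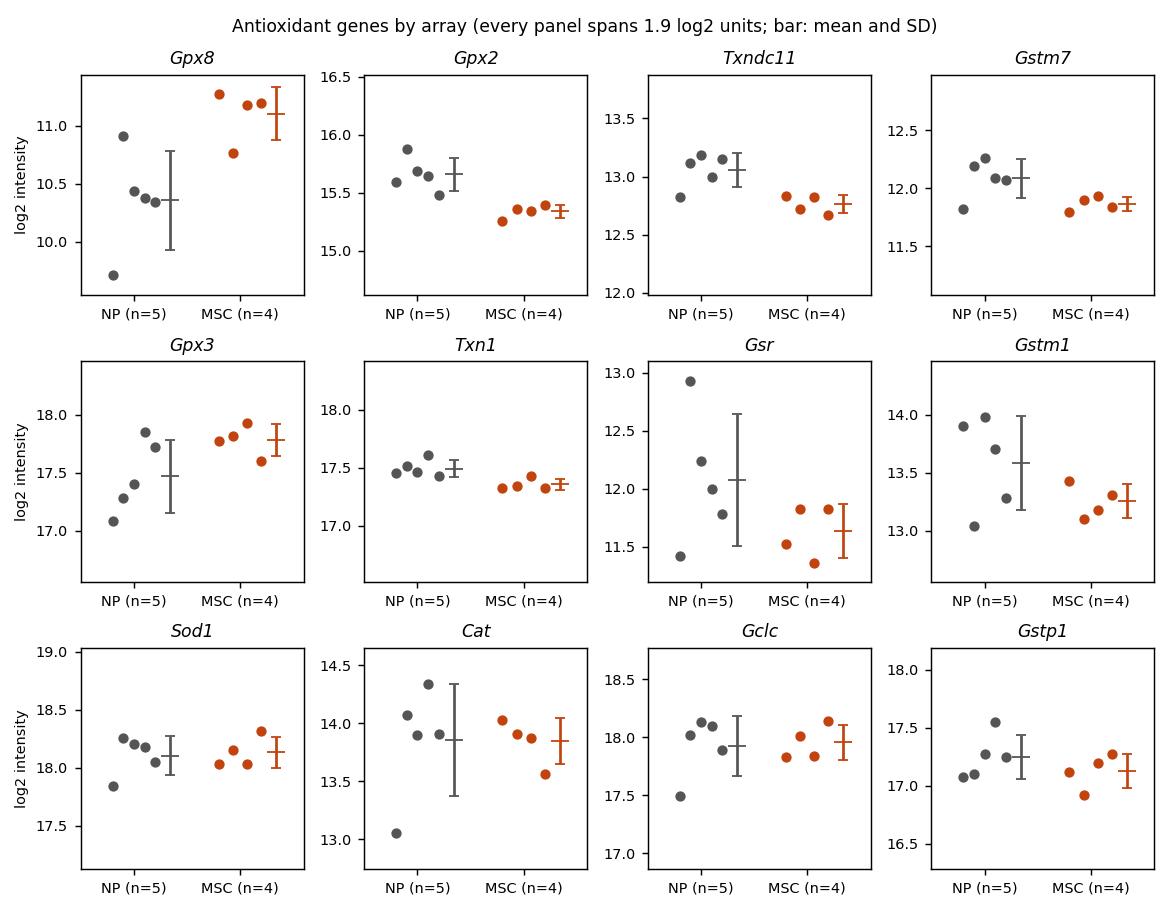
Log2 intensity (vertical axis, every panel spanning the same number of log2 units) of 12 antioxidant genes on each NP (grey, n = 5) and MSC array (orange, n = 4), with points in replicate order and the mean and SD beside them. Gpx2 and Txn1 are the genes whose groups do not overlap, and Gpx8, Gsr and Cat show NP kidneys spread over more than 1 log2 unit.

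Peroxiredoxins reduce peroxides through a reactive cysteine, and all 6 were tested, with 3 higher and 3 lower in MSC kidneys and no unadjusted p under 0.05 (lowest 0.194). Prdx1, a cytosolic member, measured 16.16, 15.88, 16.57, 16.50 and 16.24 in NP and 16.43, 16.36, 16.47 and 16.48 in MSC kidneys. The MSC arrays lay close together inside the wider NP range. Its difference was 0.16 (95% interval -0.14 to 0.46). Prdx6, which also acts as a phospholipase, measured 15.05, 15.35, 15.67, 15.42 and 15.27 in NP and 15.34, 15.24, 15.16 and 14.99 in MSC kidneys, a difference of -0.17 with overlapping groups. Prdx3, of mitochondria, differed by 0.17 and Prdx4, of the endoplasmic reticulum, by 0.14. Prdx5, found in several compartments, differed by -0.0058 (95% interval -0.23 to 0.22).

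Prdx2, an abundant protein of red cells as well as of tissue, measured 16.35, 15.95, 16.04, 16.32 and 16.35 in NP and 16.36, 16.05, 16.29 and 16.03 in MSC kidneys. MSC replicate 1 was the highest of the 9 arrays for Prdx2 and the lowest for the red cell list, at 9.08. The difference of Prdx2 was -0.02 (95% interval -0.29 to 0.25). The 3 tested red cell genes were all lower in MSC kidneys, with a median log2 difference of -1.68, and the part of red cells in the Prdx2 level was not tested.

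The thioredoxin system reduces peroxiredoxins and other protein disulphides. The cytosolic Txn1 was lower on all MSC arrays than on any NP array, by a small amount. Its probe, printed as that of the other gene without overlap, covers bases 225 to 284 of the transcript (chr5:75921410-75922750 on rn4, minus strand) and was spotted 10 times on each array.
Txn1 probe: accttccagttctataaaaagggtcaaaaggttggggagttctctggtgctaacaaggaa
Txn1 measured 17.45, 17.52, 17.46, 17.61 and 17.43 in NP and 17.33, 17.35, 17.43 and 17.33 in MSC kidneys. MSC replicate 3 and NP replicate 5 were nearly equal, and the other MSC arrays lay lower. The difference was -0.14 (SE 0.071, limma p 0.0847, FDR 0.482), so the absence of overlap did not bring the gene past the unadjusted threshold. Its single spots within an array had a median SD of 0.094. The value of a kidney is the mean of its spots, and these means had SDs of 0.070 in NP and 0.049 in MSC. A mean of spots varies less than a single spot, so these SDs are not like measures.

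Txn2, the mitochondrial thioredoxin, differed by 0.012 (95% interval -0.20 to 0.22). Txnrd1, the cytosolic reductase, measured 9.76, 10.84, 10.57, 10.08 and 10.00 in NP and 10.08, 10.24, 9.63 and 10.34 in MSC kidneys, where NP replicate 2 was the highest array and MSC replicate 3 the lowest. Its difference was -0.18 on the probe used and 0.032 on the other, which lies further along the transcript. The mitochondrial reductase Txnrd2 differed by 0.15 and Txnrd3, known from testis, by 0.034 at a level near the lower limit of the filter. Txnip, which binds thioredoxin and blocks it, measured 13.64, 13.20, 13.03, 13.21 and 13.10 in NP and 12.45, 12.92, 13.30 and 13.89 in MSC kidneys. MSC replicates 1 and 2 were the lowest arrays and MSC replicate 4 the highest. The overall difference of -0.093 joined -0.60 on slide 1 with 0.44 on slide 2, and MSC replicates 3 and 4, both on slide 2, were also the arrays with the high fat list. The part of either in the Txnip level was not tested.

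Of the other proteins with a thioredoxin fold, 8 of 10 were tested and 1 had an unadjusted p under 0.05. Txndc11, a membrane protein of the endoplasmic reticulum, measured 12.83, 13.12, 13.19, 13.00 and 13.15 in NP and 12.83, 12.72, 12.82 and 12.67 in MSC kidneys. NP replicate 1 lay among the MSC arrays, and the other NP arrays were above them all. NP kidneys were 1.23-fold above MSC kidneys (log2 difference -0.29, SE 0.092, limma p 0.00953, FDR 0.331), with -0.27 on slide 1 and -0.33 on slide 2. The remaining 7 ran from -0.15 for Txnl4b, a splicing protein, to 0.19 for Txndc16, with 0.06 for Txndc17, 0.063 for Txndc15 and -0.0079 for Txnl1 between them. The level of Txndc16 was near the lower limit of the filter, and its difference was 0.30 on slide 1 and 0.044 on slide 2. Txndc2 and Txndc8, both known from sperm, did not pass the filter.

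Glutathione synthesis was measured first at its rate-setting enzyme. Gclc, the catalytic subunit, measured 17.49, 18.02, 18.13, 18.10 and 17.89 in NP and 17.83, 18.01, 17.84 and 18.14 in MSC kidneys, with NP replicate 1 below the other 8 arrays. Its difference was 0.03 (95% interval -0.28 to 0.34). Gclm, the modifier subunit, measured 8.92, 8.38, 9.18, 9.09 and 8.85 in NP and 8.92, 8.86, 8.90 and 8.94 in MSC kidneys, where the MSC arrays lay close together in the middle of the NP range. Gclm differed by 0.022 (95% interval -0.31 to 0.35), and its level was near the lower limit of the filter. Gss, which completes glutathione, differed by -0.058, and Ggt1, which breaks it down at the brush border, by -0.094 (NP 17.05 to 17.32, MSC 17.00 to 17.23).

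Glutathione reductase, Gsr, had the largest difference of this group but with kidneys far apart within NP. Its probe is shown because it was spotted 10 times on each array. It covers bases 985 to 1044 of the transcript (chr16:62257899-62258792 on rn4, minus strand).
Gsr probe: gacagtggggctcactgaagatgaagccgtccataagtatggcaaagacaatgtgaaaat
Gsr measured 11.42, 12.93, 12.24, 11.996 and 11.78 in NP and 11.52, 11.83, 11.36 and 11.83 in MSC kidneys. NP replicate 2 was the highest and NP replicate 1 lay below most MSC arrays. The single spots of 1 array, which share RNA, labelling and hybridisation, had a median SD of 0.064. The values of the kidneys, each a mean of its spots, had an SD of 0.57 in NP and 0.23 in MSC. The difference was -0.44 (SE 0.26, limma p 0.125), smaller than the SD of the NP kidneys and larger than that of the MSC kidneys. With NP replicate 1 left out it was -0.60, and with NP replicate 2 left out -0.23.

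The glutathione transferases were the largest family, with 18 of 23 genes tested. Of these 8 were higher and 10 lower in MSC kidneys, with a median difference of -0.05, and 1 had an unadjusted p under 0.05. Gstm7, of the mu class, measured 11.82, 12.19, 12.27, 12.09 and 12.07 in NP and 11.80, 11.90, 11.93 and 11.84 in MSC kidneys. NP replicate 1 lay among the MSC arrays and the other NP arrays lay above them. The difference was -0.22 (SE 0.10, limma p 0.0476, FDR 0.422). With slide as a block the difference was nearly the same, -0.22, at a limma p of 0.055, and p was also above 0.05 in 8 of the 9 fits that left out 1 array.

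Differences of the other mu-class genes ran in both directions. Gstm1 measured 13.90, 13.04, 13.98, 13.70 and 13.28 in NP and 13.43, 13.10, 13.18 and 13.31 in MSC kidneys, with NP replicate 2 below all MSC arrays and NP replicates 1, 3 and 4 above them. Its difference was -0.33 (limma p 0.118). Gstm5 differed by -0.24, Gstm2 by 0.042 and Gstm4 by 0.077 on the probe used and by 0.091 on its other probe. Gstm3, Gstm6 and Gstm6l did not pass the filter. The mu-class genes form a cluster on chromosome 2, and their probes were compared for shared sequence because close paralogues can cross-hybridise. Among all 2339 pairs of probes of different members, 0 shared a run of 20 bases or more. Matches of a probe to the transcripts of other genes were not analysed here.

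The alpha class is abundant in proximal tubule. Gsta1 measured 17.53, 17.70, 18.04, 17.93 and 17.80 in NP and 17.81, 17.74, 17.79 and 17.89 in MSC kidneys, and its difference was 0.0067 (95% interval -0.23 to 0.24). Gsta2 differed by 0.0034, Gsta4 by 0.057 and Gsta5 by -0.064. For Gsta3 the 2 probes gave 0.11 and 0.017.

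In the theta class, Gstt2 measured 13.58, 13.42, 13.89, 13.53 and 13.24 in NP and 13.37, 13.38, 13.10 and 13.14 in MSC kidneys. NP replicate 5 lay among the MSC arrays and the other NP arrays lay above them. The difference was -0.28 (limma p 0.0569), and with slide as a block -0.26 (limma p 0.0423, FDR 0.376). Gstt3 measured 12.69, 13.24, 12.96, 12.94 and 13.18 in NP and 13.16, 13.27, 13.15 and 13.40 in MSC kidneys on the probe used, a difference of 0.24 (limma p 0.0676), whereas its other probe gave -0.04. The 2 probes of Gstt3 thus differed in sign, by 0.29, the widest gap among the 6 genes with 2 tested probes. Gstt1 differed by -0.039, and Gstt4 did not pass the filter.

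The remaining transferases were lower in MSC kidneys by small amounts, except for Gstcd, a gene with a transferase-like domain, at 0.067 on the probe used and -0.032 on its other probe. Gstp1, of the pi class, measured 17.07, 17.10, 17.27, 17.54 and 17.24 in NP and 17.12, 16.92, 17.20 and 17.27 in MSC kidneys, and its difference was -0.12 (95% interval -0.38 to 0.13). Gstk1 of the kappa class differed by -0.10, Gsto1 of the omega class by -0.078 and Gstz1 of the zeta class by -0.15. Nqo1, the quinone reductase that is a standard readout of NRF2, measured 10.31, 9.81, 10.26, 10.23 and 10.17 in NP and 9.66, 9.91, 10.17 and 10.29 in MSC kidneys. MSC replicate 1 was the lowest of the 9 arrays and NP replicate 2 the next. The difference of Nqo1 was -0.15 (95% interval -0.48 to 0.18), with -0.34 on slide 1 and 0.025 on slide 2.

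**Figure D4:**
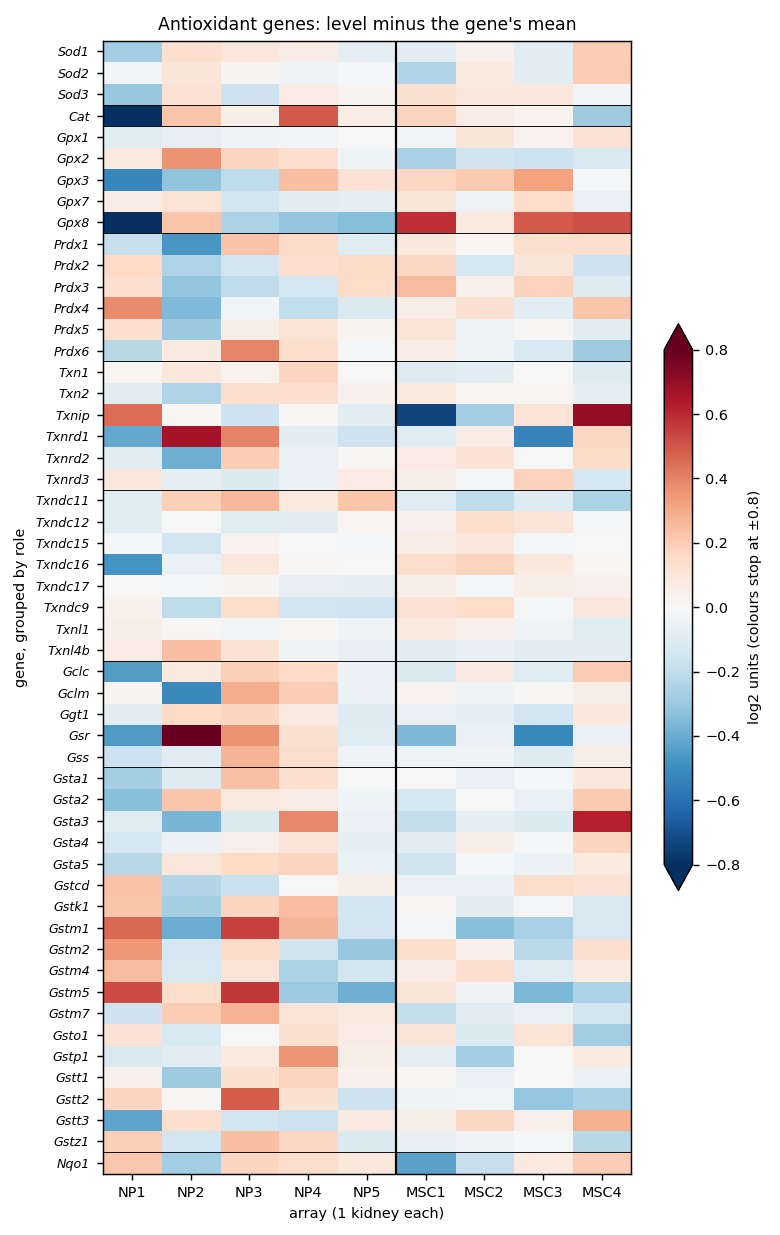
Level of each of the 53 antioxidant genes (rows, grouped by role) on each array (columns) minus the mean of that gene over the 9 arrays, in log2 units. NP1 and NP2 hold the strongest colours, and no block of rows separates the NP from the MSC columns.

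The spread among the NP kidneys set the error of many members. NP replicate 1 was the lowest of the 9 arrays for 26.4% of the members, close to its 25.6% over all genes. NP replicate 2 was the lowest for 28.3% of the members and the highest for 9.43%, whereas over all genes it was more often the highest, at 28.9%, than the lowest, at 19.7%. NP replicate 3 was the highest for 26.4% of the members against 9.67% of all genes. With NP replicates 1 and 2 both left out, a choice made after seeing the data, 6 members had an unadjusted p under 0.05, 1 higher and 5 lower, or 11.3% against 13.8% of all genes, and 0 passed an FDR of 0.05.

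Promoters were compared for the core of the antioxidant response element, the letters TGACNNNGC, to which NRF2 binds with a small MAF partner. RefSeq windows from 250 bases before to 50 bases after the start of a gene, on the GRCr8 assembly, were found for 54 of the 62 members. The letters were present on either strand for 18 genes, or 33.3%, and in 31% of the 58 member windows, against 12.1% of all 33469 windows. The overlapping letters TGACTCA, the site of AP-1, which the antioxidant element can contain, were present for 4 members, or 7.41%, against 4.63% of all windows. The 18 genes with the antioxidant core were Gclm, Gpx2, Gsta1, Gsta2, Gsta3, Gstcd, Gstm5, Gstm7, Gstp1, Gstz1, Prdx1, Prdx4, Prdx5, Sod2, Txndc11, Txndc17, Txnl4b and Txnrd1. Below are the 250 bases before the start of Gpx2, which differed at the unadjusted threshold, and of 3 genes long known as NRF2 targets that did not, with the match in capitals.
Gpx2 (chr6:101230034-101230283, minus strand): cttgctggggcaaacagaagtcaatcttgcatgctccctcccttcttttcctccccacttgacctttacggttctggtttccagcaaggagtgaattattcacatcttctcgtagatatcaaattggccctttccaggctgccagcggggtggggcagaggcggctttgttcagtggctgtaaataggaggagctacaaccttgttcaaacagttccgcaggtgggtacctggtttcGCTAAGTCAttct
Gstp1 (chr1:210769706-210769955, minus strand): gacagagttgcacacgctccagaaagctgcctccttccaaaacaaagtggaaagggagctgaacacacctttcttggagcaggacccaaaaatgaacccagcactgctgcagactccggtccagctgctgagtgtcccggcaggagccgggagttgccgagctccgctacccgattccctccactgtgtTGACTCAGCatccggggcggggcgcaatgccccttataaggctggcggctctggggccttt
Prdx1 (chr5:135383656-135383905, plus strand): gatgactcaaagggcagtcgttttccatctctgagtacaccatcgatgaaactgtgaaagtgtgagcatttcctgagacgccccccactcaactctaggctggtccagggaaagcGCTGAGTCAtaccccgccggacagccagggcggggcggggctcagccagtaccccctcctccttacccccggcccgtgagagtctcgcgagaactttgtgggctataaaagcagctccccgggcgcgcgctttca
Gclm (chr2:213031885-213032134, plus strand): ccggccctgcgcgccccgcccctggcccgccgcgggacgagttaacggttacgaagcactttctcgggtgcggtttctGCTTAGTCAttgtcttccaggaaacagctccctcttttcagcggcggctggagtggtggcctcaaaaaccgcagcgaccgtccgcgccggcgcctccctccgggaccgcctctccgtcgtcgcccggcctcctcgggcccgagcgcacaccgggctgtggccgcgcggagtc
The match lies 13 bases before the start in Gpx2, where it reads TGACTTAGC on the opposite strand, and 61 bases before it in Gstp1, where it reads TGACTCAGC. In Prdx1 it lies 135 bases before the start and in Gclm 172, both on the opposite strand. All 18 genes with the letters were tested, and 8 were higher and 10 lower in MSC kidneys, with a median difference of -0.01 and a range from -0.32 to 0.16. The 28 tested genes whose windows lacked them had a median of 0.03 and a range from -0.33 to 0.31, with 17 higher and 11 lower. An unadjusted p under 0.05 was found for 3 of the 18 genes with the letters, namely Gpx2, Txndc11 and Gstm7. It was found for 0 of the 28 without them and for 11.7% of all genes. The FDRs of these 3 genes were 0.331, 0.331 and 0.422. Gpx8, the other of the 4 members below that p, had no window. These counts are a description of the letters and carry no test.

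Genes that supply or surround these enzymes were read from 7 lists with 110 genes, of which 86 were tested. At an unadjusted p under 0.05 there were 11, or 12.8%, against 11.7% of all genes, 7 of them higher and 4 lower in MSC kidneys, and 0 passed an FDR of 0.05. Chac1, which degrades glutathione inside the cell, measured 9.43, 9.49, 9.44, 9.61 and 9.39 in NP and 8.98, 9.29, 8.88 and 9.19 in MSC kidneys, lower on every MSC array. Its difference was -0.39 (SE 0.10, limma p 0.0031, FDR 0.331). Slc3a2, a subunit of amino-acid exchangers that include the cystine carrier, differed by 0.44 (limma p 0.0153), with NP arrays from 14.06 to 14.86 and MSC arrays from 14.89 to 15.10. Abcc1, which exports glutathione and its conjugates, differed by -0.56 (limma p 0.0478), and 10 of the 18 tested genes of their list, glutathione precursors and turnover, were higher and 8 lower. Slc7a11, the partner of Slc3a2 in cystine uptake, did not pass the filter.

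In the list of NADPH supply, Idh2, the mitochondrial enzyme that makes NADPH from isocitrate, measured 17.59, 17.73, 17.79, 17.86 and 17.92 in NP and 17.98, 18.02, 17.96 and 18.16 in MSC kidneys. Every MSC array was above every NP array. The difference of Idh2 was 0.25 (limma p 0.0172, FDR 0.351), and that of the mitochondrial malic enzyme Me3 was 0.33 (limma p 0.0388). Mthfd2, a mitochondrial folate enzyme, ran the other way by -0.41 (limma p 0.0389), and 7 of the 12 tested genes of the list were higher and 5 lower in MSC kidneys. Among NRF2 and its targets, 14 of 16 genes were tested, with 5 higher and 9 lower. Ephx1, an epoxide hydrolase, differed by 0.28 (limma p 0.0255) and Blvrb, a biliverdin reductase abundant in red cells, by -0.27 (limma p 0.0213), the red cell list being lower in MSC kidneys too. Its part in the Blvrb level was not tested. Nfe2l2, which encodes NRF2, differed by 0.12, and Keap1, its inhibitor, by 0.21, neither past the unadjusted threshold.

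In the remaining partner lists the leading genes were the following. Pdia3 and Pdia6, disulphide isomerases of the endoplasmic reticulum, differed by 0.42 (limma p 0.0357) and 0.23 (limma p 0.0758). In their list 9 of the 15 tested genes were higher and 6 lower in MSC kidneys. Ptges, the membrane-bound glutathione-dependent prostaglandin synthase, measured 11.81, 10.97, 11.35, 11.33 and 11.50 in NP and 12.14, 12.03, 11.70 and 11.88 in MSC kidneys, where NP replicate 1 lay among the MSC arrays. Its difference was 0.55 (limma p 0.00661, FDR 0.331), and all 5 tested members of its membrane-bound family were higher in MSC kidneys, Mgst1 by 0.15. The paraoxonases Pon3 and Pon2 differed by 0.25 (limma p 0.0276) and 0.16 (limma p 0.0594), in a list with 8 of 11 tested genes higher and 3 lower. Among sources of oxidants, 0 of 11 tested genes had an unadjusted p under 0.05, with 7 higher and 4 lower in MSC kidneys. Maob differed by 0.29 and the NADPH oxidase Nox4, abundant in kidney, by 0.28.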

How the data were processed

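Renal RNA of 5 NP and 4 MSC kidneys was labelled with Cy3 and hybridised by the authors to Agilent 8 x 60K rat arrays, 1 per kidney, on 2 slides (NP replicates 1 to 3 and MSC replicates 1 and 2 on slide 1, the others on slide 2). The deposited scanner files hold spot intensities from Agilent Feature Extraction 10.7.3.1. A deposited table holds the authors' log2 values after their normalization, and it correlated with the values below at 0.99987 to 0.99997 over 15713 probes. The number of arrays limits the precision.

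Mean signals, without background subtraction, were log2 transformed and normalized by cyclic loess (3 iterations, limma 3.58.1 in R 4.3.3), with flagged gene spots left out. The methods set the filter by 10% and the 95th percentile of negative control spots in wording that leaves its reading uncertain. It was taken as 10% above that percentile on the log2 scale, so a spot was kept where it exceeded 1.1 times this value on at least 4 arrays. Kept spots of a probe were replaced by their mean, and where a gene had several probes the most variable of them was used. MSC and NP were compared with lmFit and eBayes over 13833 genes with Benjamini-Hochberg adjustment. Nothing stated that kidneys of 1 group came from different litters or days, so p-values measure the spread between these kidneys. On simulated data (13831 genes) the MSC minus NP fit recovered 88% of 2-fold and 96% of 4-fold changes at an FDR of 0.05. There were 100 genes of each size and 9 false calls. The simulated noise was independent between genes and equally wide in both groups. It lacked the deviations that many genes of a real array share, so these percentages need not hold for the real arrays.

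The members, the gene lists and the tests were chosen with earlier results of these data known. Genes named in the text were the members with a limma p under 0.05, a list of main enzymes, up to 2 partner genes per list with the smallest p, and genes whose probes differed by more than 0.3, of which there were 0. The few others named (Gpx7, Txnrd3, the Txndc and Txnl genes, further transferases, Slc7a11, Abcc1, Mthfd2, Nfe2l2, Keap1, Hmox1, Slc5a2, Slc12a1, Slc12a3 and Col1a1) were added to complete a family or a list after their values were seen. Alternatives changed the signal, background, normalization, filter, probe choice, variance model, slide and arrays. Promoter windows came from RefSeq (GRCr8), and probe coordinates are those of the files (rn4).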

Additional observations from a re-analysis of the deposited data

Results flagged for a closer look

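Of 60 groups of named antioxidant genes examined for an array that stands far from the rest of its group, 3 were picked out, the number that chance alone gives at 1 in 20. In each the gap between the array and its nearest neighbour took up more of the group's range than the critical share for 5 arrays. NP replicate 2 was the lowest NP array for Prdx5, at 16.75 against 17.07 to 17.18 on the others, with a gap of 0.746 of the range. It was also the lowest for Nqo1, at 9.81 against 10.17 to 10.31, with a gap of 0.728. NP replicate 1 was the highest for Txnip, at 13.64 against 13.03 to 13.21, with a gap of 0.71, which only just exceeded the critical share.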

How the results depend on the processing

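In all 30 alternatives 0 antioxidant genes and 0 partner genes passed an FDR of 0.05. The number of antioxidant genes with an unadjusted p under 0.05, 4 as reported, was 2 after median scaling, 2 on slide 1 alone, 2 on slide 2 alone, 8 with no filter on low signals (12.9%, against 8.8% of all genes) and 7 with array weights (13.2%, against 16.6%), and 3 to 6 when 1 array was left out. The median difference of the antioxidant genes moved to -0.078 after median scaling and ran from -0.0093 to 0.021 when 1 array was left out. Partner genes at that threshold, 11 as reported, numbered 3 after median scaling and 7 on slide 2 alone, and 6 to 13 when 1 array was left out, with 7 without NP replicate 3 and 6 without MSC replicate 2. Of all genes, 1623 as reported had an unadjusted p under 0.05, against 845 after median scaling, 805 on slide 1 alone and 906 with MSC replicates 3 and 4 left out, and 1176 to 2301 when 1 array was left out. Calls at an FDR of 0.05 over all genes numbered 2 with array weights, 4 on slide 2 alone and 1 with NP replicates 1 and 2 left out. The last choices, which left out 2 arrays, were made after seeing the data, and the cause of these shifts was not tested. Gpx8, Gpx2, Txndc11 and Gstm7 kept their direction in all 30 alternatives, and kept an unadjusted p under 0.05 in 28, 28, 27 and 15 of them. Gpx8 lost it on slide 1 alone, with a difference of 0.66, and with MSC replicates 3 and 4 left out, also 0.66. Other members changed sign between alternatives, among them Cat (-0.41 to 0.30), Txnip (-0.60 to 0.44), Gpx3 (-0.023 to 0.54), Prdx1 (-0.0051 to 0.24), Txnrd1 (-0.30 to 0.032), Nqo1 (-0.37 to 0.025) and Sod3 (-0.015 to 0.22).

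The groups share replicate numbers 1 to 4, which were not taken as pairs in the fit reported. The deviations of same-numbered arrays correlated at 0.20, 0.32, -0.35 and 0.045. Of the 4 MSC arrays, 2 correlated best with the NP array of their own number. So few arrays cannot settle whether the numbers mark pairs. With the replicate block, which leaves out NP replicate 5, 6 antioxidant genes (11.3%, against 11.4% of all genes) had an unadjusted p under 0.05, 3 of them among the 4 reported, and 0 passed an FDR of 0.05.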

Other observations

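Hmox1, the haem oxygenase that NRF2 and haem induce, was the partner gene with the widest spread among the values given here. It measured 14.67, 12.12, 12.15, 11.72 and 12.19 on the NP arrays and 12.93, 13.01, 11.84 and 12.46 on the MSC arrays, so that NP replicate 1 lay above the 8 others. The difference between the groups was -0.0073 with a 95% interval of -1.22 to 1.21 (limma FDR 0.997). On that same array Gclc and Cat were the lowest of the 9 and Nqo1 the highest, at 17.49, 13.05 and 10.31.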
